A study of Mus musculus with 12 samples.

Results

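The 8 genes described here encode proteins that transcribe mitochondrial DNA (Tfam, Tfb2m, Polrmt), handle its RNA (Fastkd2, Supv3l1) or serve its translation (Mtrf1l, Rmnd1, Qrsl1). They were chosen by name, with earlier results of these data known. Each matched 1 row among the 2398 genes of the analysed table through its Entrez Gene identifier. RNA was sequenced from myelinating oligodendrocytes, the cells that wrap axons of the brain in myelin, sorted from mouse brain as EGFP-positive cells that excluded propidium iodide, a dye of dead cells. In the KO group (Cnp Cre/+;Lmna fl/fl) Cre recombinase is expressed from a Cnp allele, a gene of the oligodendrocyte lineage, and acts on floxed Lmna, which encodes lamins A and C. The WT group (Cnp +/+;Lmna fl/fl) carries the same floxed Lmna without Cre, so Cre and the state of 1 Cnp allele differ along with Lmna. Both groups were C57BL/6 mice with the Ndrg1-EGFP reporter, aged 60 postnatal days in one label and 8 weeks in another. Each genotype had 3 biological replicates, and the labels do not say how many animals made up a replicate.

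Mitochondrial DNA is copied into RNA by a polymerase of its own. Tfam, a high-mobility-group protein, coats and bends this DNA and brings the polymerase Polrmt to the promoters, where Tfb2m helps to open the strands. The long transcripts are then cut, matured in RNA granules, read by mitochondrial ribosomes and degraded, and all proteins of these steps are encoded in the nucleus. Myelinating oligodendrocytes use mitochondria for energy and for building blocks of lipids. The RNAs made in mitochondria were not analysed here, so the values below concern the nuclear genes of the machinery and not its output.

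Reads were counted per gene, and the 2 libraries of a replicate were summed. The replicates held 3694551 to 6093336 counts in the analysed genes of chromosomes 1 and 10, which are part of each library and not its depth. Levels are given in CPM, counts scaled to a common total of the analysed genes with TMM factors. Of the listed markers of myelinating oligodendrocytes 3 of 23 were in the table, Tmem63a, Adamts4 and Nfasc, and they summed to 27220 to 30340 CPM in KO and 22350 to 24860 CPM in WT. Microglial markers (4 of 22 in the table) summed to 88.3 to 372 CPM in KO and 91.6 to 165 CPM in WT, astrocyte markers (3 of 16) to 484 to 1095 CPM in KO and 356 to 799 CPM in WT, and mural and fibroblast markers (6 of 17) to 277 to 668 CPM in KO and 107 to 499 CPM in WT. Neuronal markers (3 of 17) summed to 222 to 302 CPM in KO and 227 to 516 CPM in WT, endothelial markers (2 of 16) to 18.4 to 38.2 CPM in KO and 25.2 to 58.4 CPM in WT, and progenitor markers (2 of 11) to 12.2 to 95.6 CPM in KO and 0.497 to 36.5 CPM in WT. None of these marker genes was at 0 in all replicates. In these sorted populations fewer transcripts per cell and fewer cells that carry them cannot be told apart. Lmna itself was not analysed here, so its recombination was not checked.

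The stretches around the starts of 4 genes are shown as a description, and their link to the levels was not tested. Tfam, Tfb2m and Polrmt form the core of mitochondrial transcription, and Fastkd2 had the smallest KO to WT ratio of the 8 genes. Each stretch runs 5′ to 3′ from 120 bases before the start to base 30 of the transcript, from RefSeq on GRCm38.p6. The start is the one set for the RefSeq promoter of each gene. In all 4 genes it lies inside the RefSeq gene span, whose upstream end is 63730599 in Fastkd2 and 71238328 in Tfam. The whole printed stretch of Tfam therefore lies inside its gene span, and in each of the other genes shown some letters before this start do. The stretch of Tfam is the minus strand of chr10:71238015-71238164, that of Tfb2m the minus strand of chr1:179546247-179546396, that of Polrmt the minus strand of chr10:79746552-79746701 and that of Fastkd2 the plus strand of chr1:63730505-63730654. Capitals mark 3 sets of letters searched on both strands, GCGCA, any base and GCGC in a row for NRF1 (nuclear respiratory factor 1), CCGGAAG for GABPA (an ETS factor) and TATAAA, the TATA box. NRF1 and GABPA are known regulators of nuclear genes for mitochondria.
Tfam: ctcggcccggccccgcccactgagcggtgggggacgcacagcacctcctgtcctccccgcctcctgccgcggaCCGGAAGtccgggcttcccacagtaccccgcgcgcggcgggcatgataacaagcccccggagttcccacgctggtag
Tfb2m: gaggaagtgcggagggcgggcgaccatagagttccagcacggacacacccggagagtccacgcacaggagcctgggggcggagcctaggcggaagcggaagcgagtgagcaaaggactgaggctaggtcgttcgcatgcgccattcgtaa
Polrmt: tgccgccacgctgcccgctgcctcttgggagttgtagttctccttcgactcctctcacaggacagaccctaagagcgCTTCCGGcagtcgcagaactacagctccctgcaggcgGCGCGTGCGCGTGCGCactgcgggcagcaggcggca
Fastkd2: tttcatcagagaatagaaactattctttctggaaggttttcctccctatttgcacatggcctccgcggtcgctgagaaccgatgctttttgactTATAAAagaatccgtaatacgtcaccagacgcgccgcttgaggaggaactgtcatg

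In the stretch of Polrmt a GABPA match began 43 bases before the start. Of 2 overlapping NRF1 matches, 1 began 6 bases before the start and spanned it, and 1 began at base 1 of the transcript. Tfam had a GABPA match 47 bases before its start, inside its RefSeq gene span. The Tfb2m stretch had none of the 3 sets of letters, which says nothing about the factors that act there. In Fastkd2 the letters TATAAA began 26 bases before the start, at the base where its RefSeq gene span begins. All 8 genes had a RefSeq window of 250 bases before to 50 after the start. The windows of Tfam, Mtrf1l and Supv3l1 lie wholly inside the RefSeq span of the same gene. Over the windows of the 8 genes the NRF1 letters were in 2 of 8 (Polrmt and Rmnd1), against 4.60% of 32851 RefSeq windows of the same length. The GABPA letters were in 3 of 8 (Tfam, Polrmt and Rmnd1), against 8.86%, and TATAAA was in 2 of 8 (Fastkd2 and Polrmt), against 13.6%. Letters for a GC box (GGGCGG) were in 5 of 8, against 35.7%, and those of YY1 (ANATGGCG) and CREB (TGACGTCA) were in 0 of 8, against 3.65% and 1.79%. The window of Fastkd2 had the lowest share of G and C of the 8, 44.3%, and that of Tfam the highest, 70.3%, against a median of 52.7% over all windows. A match is a description of letters and not of binding.

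Mean levels of the 8 genes ran from 25.3 to 115.0 CPM per kb. Per kb of exon (the union of GENCODE M21 exons), Polrmt, the RNA polymerase, had the highest mean level, 112.7 CPM per kb in KO and 117.3 CPM per kb in WT. Rmnd1, an inner-membrane protein that supports mitochondrial translation, followed with 88.4 CPM per kb in KO and 103.9 CPM per kb in WT. Tfam stood at 78.7 CPM per kb in KO and 79.9 CPM per kb in WT, and Tfb2m at 56.8 CPM per kb in KO and 62.8 CPM per kb in WT. The order of the core machinery was thus Polrmt, Tfam, Tfb2m in both genotypes, and the replicates of Tfam (71.1 to 86.9 CPM per kb over all 6) did not overlap those of Tfb2m (53.3 to 68.7 CPM per kb).

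The other 4 genes had lower levels per length. Supv3l1, a helicase of mitochondrial RNA decay, stood at 45.4 CPM per kb in KO and 50.1 CPM per kb in WT. Fastkd2, an RNA-binding protein of mitochondrial RNA granules, stood at 29.3 CPM per kb in KO and 40.9 CPM per kb in WT. Mtrf1l, a release factor that ends translation at stop codons, stood at 33.8 CPM per kb in KO and 33.9 CPM per kb in WT. Qrsl1, the catalytic subunit of the amidotransferase that makes glutaminyl-tRNA for mitochondria, had the lowest level, 23.8 CPM per kb in KO and 26.8 CPM per kb in WT. Every neighbouring pair in the order of means over 6 replicates had overlapping replicate ranges except Tfam and Tfb2m. The exon unions run from 2804 bp in Tfb2m to 5894 bp in Rmnd1 and include exons that these cells may not use, so the order depends on the annotation.

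**Figure D1:**
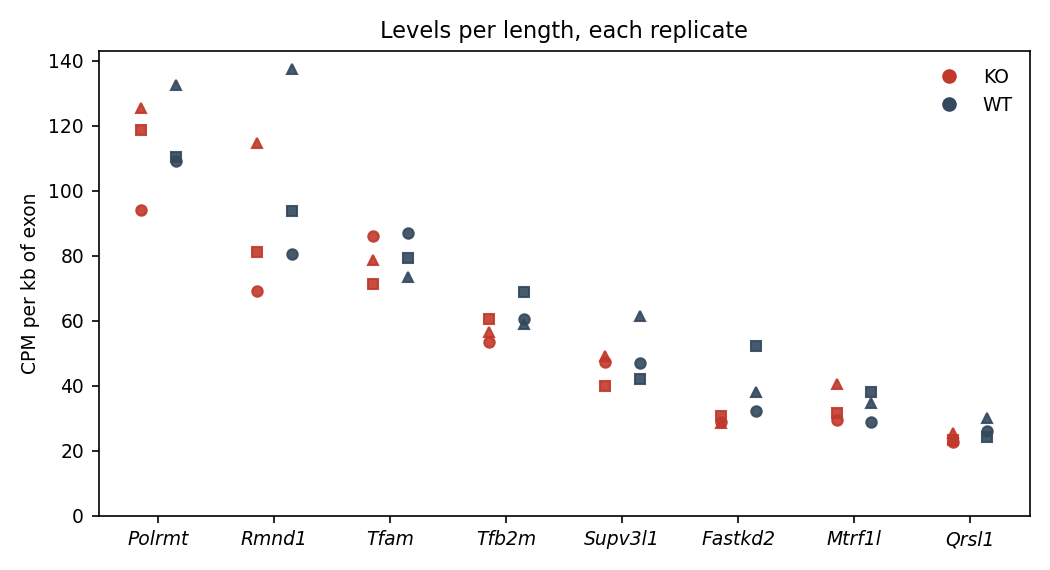
Level of each gene in CPM per kb of exon (vertical axis) for the 3 KO replicates (red) and 3 WT replicates (dark blue), with genes ordered by their mean over the 6 replicates. Polrmt and Qrsl1 lie at the ends of the order, with means of 115.0 and 25.3 CPM per kb, and the points of KO and WT overlap in every gene except Fastkd2.

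The comparison of KO with WT asked whether the nuclear genes of mitochondrial transcription and RNA handling differ in sorted oligodendrocytes when Cre acts on Lmna. None of the 8 genes passed edgeR's quasi-likelihood test at an adjusted p under 0.05. Their adjusted p values lay between 0.992 and 0.995. Over the 1484 genes that passed the filter on low counts, which all 8 genes did, 0 passed (0% of the genes tested). In edgeR 59 genes (3.98%) had an unadjusted p under 0.05, and Fastkd2 was the only one of the 8 among them. DESeq2, run without this filter on low counts, gave an adjusted p for 1977 genes. It called 6 of them higher (0.303%) and 1 lower (0.0506%) in KO, none of them among the 8. A p that misses the threshold does not show that the genotypes are alike, and the intervals below give what these replicates leave possible.

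Tfam, the DNA-coating activator, had 382, 316 and 349 CPM in the 3 KO replicates, against 386, 351 and 326 CPM in the 3 WT replicates. The groups overlapped throughout, and the highest and lowest of the 6 replicates differed by 1.22-fold, the narrowest range of the 8 genes. Tfam averaged 349 ± 33.3 CPM in KO and 354.5 ± 29.9 CPM in WT (SD, n = 3 each), with a log2 fold change, KO over WT, of -0.02 ± 0.13 (SE). The 95% interval ran from 0.81-fold to 1.204-fold.

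Tfb2m, the strand-opening factor, had 149.5, 169.7 and 159 CPM in KO, against 169.6, 193 and 166 CPM in WT. The groups overlapped, and the highest value was that of WT replicate 2. Tfb2m averaged 159 ± 10.1 CPM in KO and 176 ± 14.6 CPM in WT (SD, n = 3 each). Its log2 fold change was -0.14 ± 0.14 (SE), with an interval from 0.72-fold to 1.13-fold.

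Polrmt had 440.5, 556 and 587 CPM in KO, against 511, 516.5 and 621 CPM in WT. KO replicate 1 was the lowest, WT replicate 3 the highest, and the groups overlapped. Polrmt averaged 528 ± 77.3 CPM in KO and 549.6 ± 62.3 CPM in WT (SD, n = 3 each). KO over WT, the log2 fold change was -0.06 ± 0.14 (SE), with an interval from 0.77-fold to 1.21-fold. In the core machinery of transcription, therefore, each interval lay within a 1.5-fold change in either direction.

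Among the RNA handling genes, Fastkd2 is known from human cells as a factor that the large ribosomal RNA and the assembly of the mitochondrial ribosome need. Fastkd2 had 170.0, 179 and 167.5 CPM in KO, against 189, 306 and 224 CPM in WT. Every KO replicate lay below every WT replicate. That pattern was found in 1 of the 8 genes, against 4.04% of all genes tested. The KO replicates lay closer together than the WT replicates, of which WT replicate 2 was the highest.

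Fastkd2 averaged 172 ± 6.21 CPM in KO and 239.9 ± 60.3 CPM in WT (SD, n = 3 each). This gave a log2 fold change of -0.48 ± 0.18 (SE), with an interval from 0.54-fold to 0.96-fold that is not adjusted for the number of genes. The unadjusted p in edgeR was 0.0302 and the adjusted p 0.992, and 106 of the 1484 genes (7.14%) had a lower log2 fold change. Without WT replicate 2 the log2 fold change was -0.25 (edgeR unadjusted p = 0.159, adjusted p = 0.996), and without WT replicate 1 it was -0.62 (edgeR unadjusted p = 0.0065, adjusted p = 0.747). The edgeR unadjusted p was 0.0646, 0.0584 and 0.0767 without KO replicates 1, 2 and 3, and 0.0451 without WT replicate 3. With the first library of each replicate alone the edgeR unadjusted p was 0.0617, and with the second 0.0237. The gene spans 63730599 to 63753385 on chromosome 1 in GRCm38.p6, and no annotated gene overlaps it there.

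Supv3l1, the helicase that unwinds mitochondrial RNA for its degradation, had 140.1, 118.5 and 146 CPM in KO, against 139, 124 and 183 CPM in WT. The groups overlapped, and WT replicate 3 stood above the other 5 replicates. Supv3l1 averaged 135 ± 14.4 CPM in KO and 149 ± 30.3 CPM in WT (SD, n = 3 each). Its log2 fold change was -0.14 ± 0.19 (SE), with an interval from 0.67-fold to 1.22-fold. Exons of the long non-coding RNA gene 4930507D05Rik share 250 bp with Supv3l1 on the other strand, and that gene had 60 counts over all 6 replicates, against 492 to 1015 counts per replicate for Supv3l1. The long non-coding RNA gene Gm30322 also overlaps Supv3l1, over 1176 bp of their RefSeq spans, and its counts were not analysed here.

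**Figure D2:**
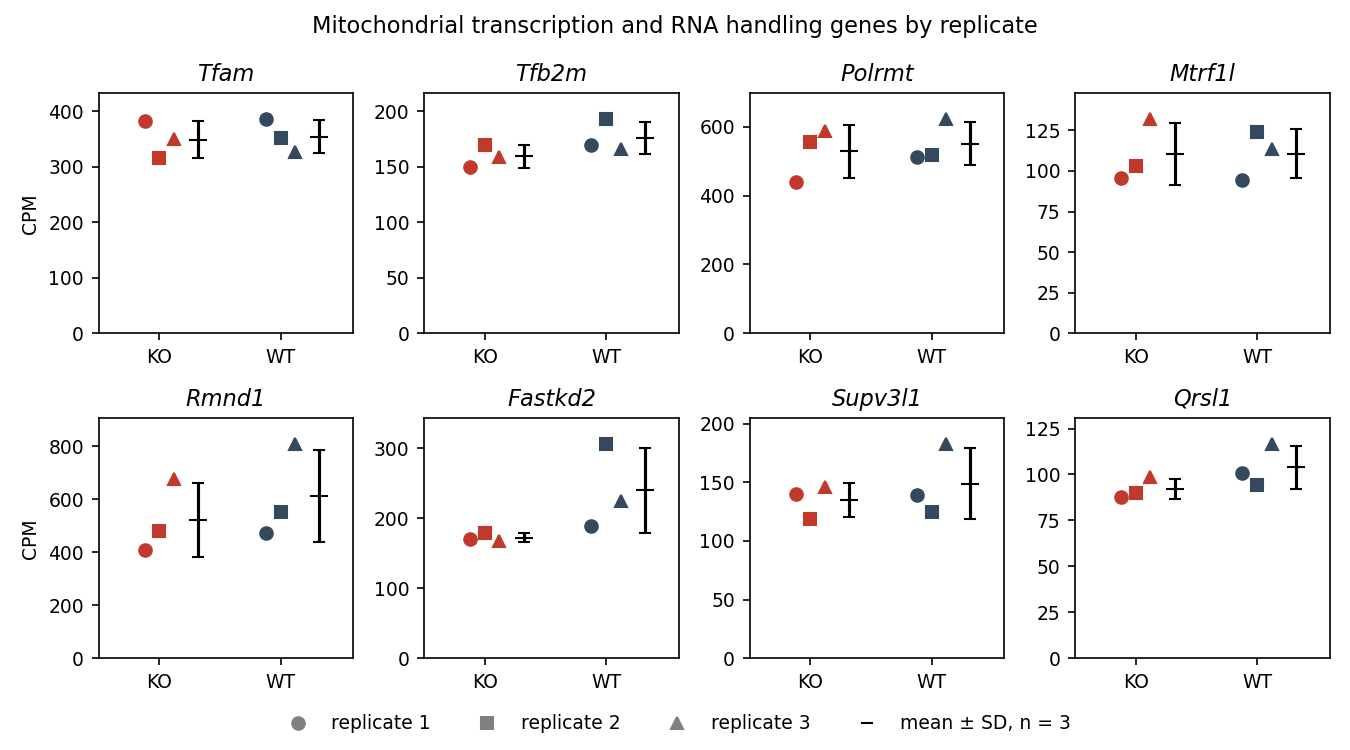
Level in CPM (vertical axis, from 0) of each of the 8 genes in 3 KO replicates (red) and 3 WT replicates (dark blue), with marker shape for the replicate number and black bars for the mean ± SD. KO and WT points overlap in 7 panels, and in Fastkd2 the KO points, 167.5 to 179 CPM, lie below the WT points, 189 to 306 CPM.

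The genes of translation began with Mtrf1l, the release factor, at 95.7, 103 and 132 CPM in KO, against 94.4, 124 and 113 CPM in WT. KO replicate 3 was the highest and WT replicate 1 the lowest of the 6. Mtrf1l averaged 110.2 ± 19.1 CPM in KO and 110.6 ± 15.1 CPM in WT (SD, n = 3 each). The log2 fold change was -0.0051 ± 0.20 (SE), with an interval from 0.73-fold to 1.36-fold, and its sign changed with the size factors and with the test.

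Rmnd1 had 407, 479 and 677 CPM in KO, against 474.5, 553 and 809 CPM in WT. It had the widest range of the 8 genes, 1.99-fold between KO replicate 1 and WT replicate 3, and replicate 3 was the highest in both genotypes. Rmnd1 averaged 521 ± 139.6 CPM in KO and 612 ± 175 CPM in WT (SD, n = 3 each). The log2 fold change was -0.23 ± 0.24 (SE), with an interval from 0.58-fold to 1.25-fold. Without WT replicate 3 it was 0.03, and without KO replicate 3 it was -0.47. Rmnd1 and Armt1 overlap over 3131 bp of their RefSeq spans, with no shared exon base in GENCODE. Armt1 stood at 110.5 ± 11.3 CPM in KO and 121 ± 24.3 CPM in WT.

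Qrsl1 had 88.0, 89.7 and 98.5 CPM in KO, against 100.7, 94.1 and 117 CPM in WT. The groups overlapped only through KO replicate 3, which lay above WT replicate 2. Qrsl1 averaged 92.1 ± 5.61 CPM in KO and 104 ± 11.6 CPM in WT (SD, n = 3 each). The log2 fold change was -0.17 ± 0.18 (SE), with an interval from 0.67-fold to 1.18-fold. Gatb and Gatc, the partners of Qrsl1 in its enzyme, and Tfb1m, the paralog of Tfb2m, were not analysed here.

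All 8 log2 fold changes were below 0, with a median of -0.14, against a median of -0.0064 over all genes tested, of which 50.5% were below 0. The 8 genes were chosen with earlier results of these data known, so neither their median nor their count below 0 was tested. The count below 0 was between 6 and 8 under the other settings that keep all replicates, with 6 under upper-quartile factors. It was 4 of 8 without WT replicate 3, with a median of -0.03. Every interval of the 8 genes lay within a 2-fold change, as did those of 63.6% of all genes tested. For 6 of the 8 genes the interval also lay within 1.5-fold, as it did for 45.4% of all genes tested, and the exceptions were Rmnd1 and Fastkd2.

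**Figure D3:**
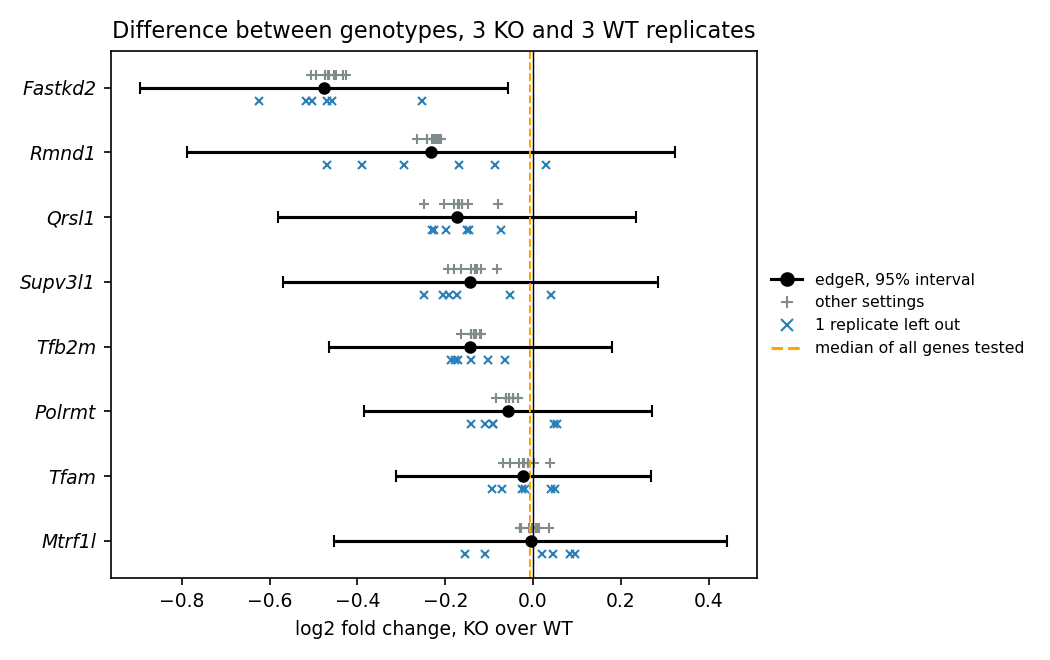
Log2 fold change, KO over WT (horizontal axis), of each gene with its 95% interval from edgeR (black), the values under other settings (grey) and with 1 replicate left out (blue), and the median of all genes tested (dashed orange line). The Fastkd2 interval, -0.90 to -0.06, lies below 0, the other 7 intervals include 0, and the values of Rmnd1 with 1 replicate left out run from -0.47 to 0.03.

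Replicates differed from each other in more than 1 pattern. WT replicate 3 was the highest for 4 genes (Polrmt, Rmnd1, Supv3l1 and Qrsl1) and KO replicate 1 the lowest for 4 (Tfb2m, Polrmt, Rmnd1 and Qrsl1). Tfam ran otherwise, with 382 CPM in KO replicate 1 and 326 CPM in WT replicate 3. Fastkd2 and Tfb2m shared WT replicate 2 as their highest. The 8 genes summed to 1873, 2011 and 2315 CPM in the KO replicates, against 2064, 2262 and 2559 CPM in the WT replicates.

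Other levels moved across the same replicates. Immediate early genes, which tissue dissociation can induce (6 of 24 in the table), summed to 476, 2582 and 1291 CPM in KO replicates 1, 2 and 3, against 1708, 340.2 and 3733 CPM in WT replicates 1, 2 and 3. WT replicate 2, the highest for Fastkd2, was thus the lowest for these genes, and WT replicate 3, the highest for Rmnd1, was their highest. The KO replicates ran otherwise. KO replicate 2 was the highest in KO for these genes and also for Fastkd2 (179 CPM), and Rmnd1 was highest in KO replicate 3 (677 CPM). KO replicate 1 was the lowest in KO for these genes and for Rmnd1. Among them Btg2 averaged 657 ± 473 CPM in KO and 889.5 ± 881 CPM in WT (SD, n = 3 each), and Egr2 488 ± 440.1 CPM in KO and 691 ± 618 CPM in WT. Astrocyte markers summed to 1095, 741.5 and 484 CPM in the KO replicates, against 799, 408.5 and 356 CPM in the WT replicates. The part of these levels in the values of the 8 genes was not tested.

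**Figure D4:**
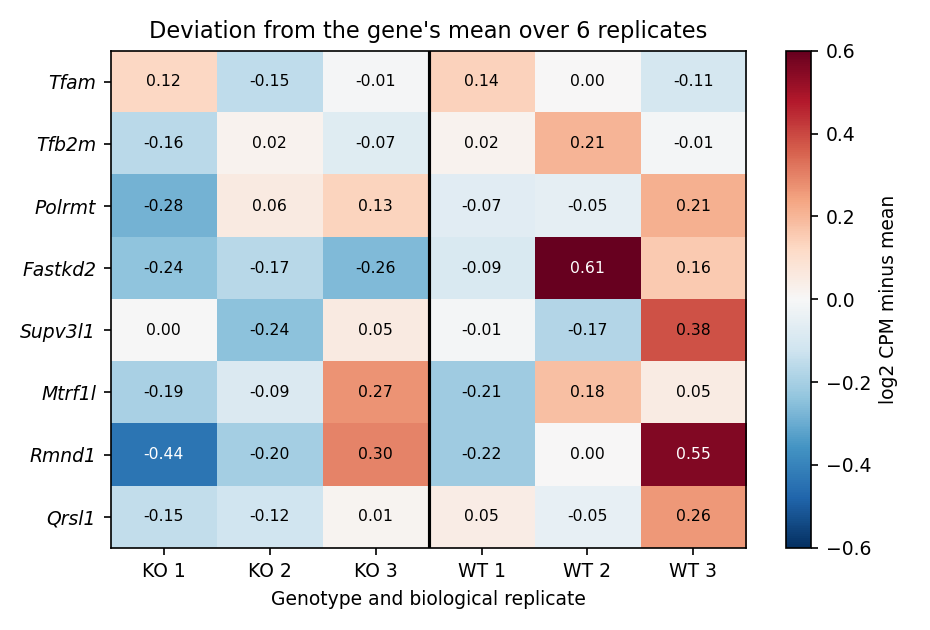
Log2 CPM of each gene minus its mean over the 6 replicates (colour and printed value), with the 3 KO replicates left of the black line and the 3 WT replicates right of it. Fastkd2 in WT replicate 2 (0.61) and Rmnd1 in WT replicate 3 (0.55) deviate most, and Tfam stays between -0.15 and 0.14.

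The other genes of the pathway were read from lists, and 0 of their members passed edgeR's test. Since 0 of all 1484 genes tested passed (0%), the counts of 0 below are no result about the lists. Of other genes of mitochondrial transcription and DNA maintenance 4 of 29 were in the table and tested, 0 passed in either direction, and their median log2 fold change was -0.12. Mterf4, which acts on mitochondrial ribosomal RNA and ribosome assembly, averaged 283.5 ± 27.3 CPM in KO and 303 ± 48.8 CPM in WT (SD, n = 3 each), and Mtres1, known from human cells as a mitochondrial RNA-binding protein, 143 ± 9.73 CPM in KO and 156.5 ± 19.6 CPM in WT. Of other RNA processing and modification genes 3 of 53 were tested and 0 passed, with a median of 0.11. Angel2, an RNA phosphatase in human cells, averaged 714 ± 43.1 CPM in KO and 714 ± 50.9 CPM in WT, and Osgepl1, which modifies mitochondrial tRNAs, 199 ± 13.5 CPM in KO and 184 ± 23.8 CPM in WT. None of the 27 listed translation factors other than Mtrf1l and Rmnd1 was in the table.

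No listed gene that acts further downstream passed the test either, as was so for all 1484 genes tested. Of mitochondrial aminoacyl-tRNA synthetases, which load tRNAs with amino acids, 3 of 21 were tested and 0 passed, with a median of -0.05. Iars2, for isoleucine, averaged 458 ± 58.4 CPM in KO and 491 ± 74.8 CPM in WT (SD, n = 3 each). Of mitochondrial ribosomal proteins 7 of 101 were tested and 0 passed, with a median of -0.15 and 7 of 7 below 0. Mrpl42 averaged 574 ± 14.6 CPM in KO and 665 ± 39.6 CPM in WT, and Mrpl15 443 ± 34.1 CPM in KO and 524 ± 36.2 CPM in WT. In 3 of the 7 (Mrpl15, Mrpl30 and Mrpl42) every KO replicate lay below every WT replicate, against 4.04% of all genes tested, and nothing particular to the list is read from so few members. Mrpl30 was named after its values were seen, at 450.5 ± 28.6 CPM in KO and 499.7 ± 19.4 CPM in WT. Of nuclear-encoded respiratory chain subunits, the products that work beside those encoded in mitochondria, 9 of 97 were tested and 0 passed, with a median of -0.05 and 5 of 9 below 0. Ndufs7 averaged 2924 ± 252 CPM in KO and 3029 ± 206 CPM in WT.

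Of the regulators of mitochondrial biogenesis 2 of 21 were tested and 0 passed, with a median of -0.25. Creb1, a transcription factor, averaged 492 ± 67.8 CPM in KO and 528 ± 108 CPM in WT (SD, n = 3 each), and Sirt1, a deacetylase, 39.7 ± 10.8 CPM in KO and 52.1 ± 17.1 CPM in WT. Of mitochondrial chaperones and proteases 2 of 20 were tested and 0 passed. Hspd1 averaged 1991 ± 379 CPM in KO and 2070 ± 372 CPM in WT, and its partner Hspe1 518.5 ± 23.3 CPM in KO and 665 ± 29.8 CPM in WT (log2 fold change -0.36 ± 0.10 SE, edgeR adjusted p = 0.927). The lists share no gene with the 8 and hold few members here, so their medians describe those members only.

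The genes whose levels over the 6 replicates were most like the mean of the 8 standardised genes, among 915 genes with at least 50 CPM in each genotype, were Armc9, Uhrf1bp1l, Zfp451, Tbc1d32 and Mcm9. Their Pearson r ran from 0.92 for Mcm9 to 0.96 for Armc9, and the Spearman rho was 0.94 for each. These genes were picked as the highest of many over only 6 replicates that share their size factors with the 8, so the values are a description. Armc9, a protein of the ciliary base, averaged 146 ± 14.5 CPM in KO and 166 ± 12.8 CPM in WT (SD, n = 3 each). Tbc1d32, a ciliary protein, averaged 66.7 ± 5.67 CPM in KO and 84.9 ± 8.97 CPM in WT. Every KO replicate of Tbc1d32 lay below every WT replicate, as in 4.04% of all genes tested, and edgeR gave an adjusted p of 0.994. A pick by likeness to the 8 genes, whose log2 fold changes were all below 0, favours genes lower in KO. Zfp451 averaged 183 ± 22.8 CPM in KO and 211 ± 14.5 CPM in WT, Mcm9, a helicase of DNA repair, 86.8 ± 3.17 CPM in KO and 94.5 ± 7.24 CPM in WT, and Uhrf1bp1l 210.1 ± 29.1 CPM in KO and 241 ± 24.7 CPM in WT.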

How the data were processed

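Whole-number read counts for each gene and library were deposited by the authors. Libraries were made from 5.2 ng of RNA and read as 50 bp single ends, per the labels' protocols. HISAT2, SAMtools 1.4.1 and featureCounts are among the tools, and mm10 is the build, per the submitters' processing notes. Annotation, strand setting and multiply mapped reads were not given in the sources used here, and the split of reads between overlapping genes is uncertain. Of 2398 complete lines, 2226 matched a RefSeq symbol on GRCm38.p6, and 1 incomplete line was not used.

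The 2 libraries of a replicate had a chi-square per degree of freedom of 1.00 to 1.06 over genes with at least 20 counts, against 38.1 to 140.5 between replicates of a genotype. They were summed and counted as 1 sample, n = 3 per genotype. The main test was edgeR 4.0.16 in R 4.3.3, with TMM factors of 0.951 to 1.05, filterByExpr and its quasi-likelihood F test (robust), adjusted by Benjamini-Hochberg over 1484 genes. SE values come from the log2 fold change and F, and intervals are 95%. The p values weigh the difference between genotypes against the spread between these replicates, which the fit moderates across genes. Alternatives covered size factors, filters, DESeq2 1.42.0, limma-voom (limma 3.58.1), a replicate block, each library set alone and each replicate left out. The fits were also run on simulated counts, whose outcome is not reported here.

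The 8 genes, lists and tests were chosen with earlier results of these data known. Other named genes are the 2 of highest CPM per list where none passed (some are not reported here), the 5 most like the 8 in pattern, and genes that overlap them.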

Additional observations from a re-analysis of the deposited data

How the results depend on the processing

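None of the 8 genes passed in any of the 16 alternatives. DESeq2 called 6 genes higher and 1 lower in KO over 1977 genes, against 0 and 0 over 1484 genes in edgeR, and the cause was not tested. The other alternatives gave 0 and 0, and edgeR without each replicate gave 34 to 86 genes at an unadjusted p under 0.05. The median log2 fold change of the 8 genes ran from -0.17 to -0.08 over the settings that keep all replicates. Without each replicate it ran from -0.18 (lowest) to -0.03 (without WT replicate 3). Fastkd2, Tfb2m and Qrsl1 were below 0 in all 16 alternatives.

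The sign of Mtrf1l, main value -0.0051, changed with median-of-ratios factors (0.0058), upper-quartile factors (0.013), a mean count of at least 50 (0.0060), DESeq2 (0.0075), limma-voom (0.0097) and the first library alone (0.036). That of Tfam changed with upper-quartile factors (0.0022) and the second library alone (0.039). With 1 replicate left out, Mtrf1l ran from -0.16 to 0.095, Tfam from -0.095 to 0.050, Polrmt from -0.14 to 0.054, Rmnd1 from -0.47 to 0.029, Supv3l1 from -0.25 to 0.041 and Fastkd2 from -0.62 to -0.25. Across genes, deviations of the KO and WT replicates with the same number correlated at -0.0021, -0.31 and 0.14. Pairs with different numbers ran from -0.34 to 0.35, so a shared number did not go with higher correlation over all genes. The 8 genes, however, rose with the number in summed CPM, in KO (1873, 2011 and 2315) and in WT (2064, 2262 and 2559). Under the replicate block the SE of Rmnd1 was 0.11, against 0.24 in the main test. The SE was also lower than in the main test for Tfam (0.123 against 0.128), Polrmt (0.123 against 0.144) and Mtrf1l (0.195 against 0.197). The same held for Fastkd2 (0.169 against 0.185) and Supv3l1 (0.169 against 0.188). It was higher than in the main test for Tfb2m (0.15) and Qrsl1 (0.19). Summed astrocyte markers fell with the replicate number in both genotypes, and summed immediate early genes followed it in neither. Pairing of the replicates is therefore left undecided. With the replicate block 0 genes were higher and 0 lower (49 at an unadjusted p under 0.05), and the median of the 8 genes was -0.14. Qrsl1, the lowest of the 8 genes in CPM with 309 to 648 counts per replicate, had an SE of 0.18. Rmnd1, with 1430 to 4495 counts, had an SE of 0.24. The part of depth in this precision was not tested.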

Other observations

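The spread of Fastkd2 differed between the genotypes more than that of the other 7 genes, with an SD of 3.60% of the mean in KO and 25.2% in WT. WT replicate 2 was the highest of the WT replicates in CPM. Its libraries had 622 and 612 counts of totals of 2049777 and 2105950, and those of WT replicate 3 had 613 and 633 counts of larger totals, 2662281 and 2644744. The difference in spread was not tested.

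In 2 of 48 pairs the libraries of a replicate differed for a gene at an unadjusted p under 0.05 in Fisher's exact test on the counts (two-sided). Qrsl1 had 216 and 163 counts in the libraries of WT replicate 2 (Fisher's exact p = 0.00287, adjusted p = 0.138 over the 48 pairs). Fastkd2 had 331 and 266 counts in those of KO replicate 1 (Fisher's exact p = 0.0111, adjusted p = 0.266). The test covers counting error only.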
